A study of Rattus norvegicus with 45 samples.

Results

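Triadimefon is a triazole antifungal, and the measurements here ask how its effect on liver RNA at 24 h differed from its effect at 6 h. The experiment comprised 20 of the 45 arrays of the series, chosen by their sample titles: 5 controls and 5 triadimefon arrays at 6 h, and 5 of each at 24 h. All came from male Sprague-Dawley rats, adults of 10 weeks, and the dosed rats had received triadimefon by gavage at 175 mg/kg/day, as the series text gives the dose. What the controls received is not given in the sources used here, and nothing in the labels names a genotype, a transgene or a second agent. The labels conflict on numbers, with 15 livers in the series text, 3 rats per treatment group in the labelling protocol and 5 arrays per group in the titles. The titles were followed. If arrays shared an animal, the p-values would measure only the spread between these arrays. The remaining arrays held rats given myclobutanil, a second triazole, at 225 mg/kg/day, and a last time point of 14 days.

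The quantity reported for each gene is a difference of differences. The effect at a time is the mean of the 5 triadimefon arrays minus the mean of the 5 controls of that time, and the effect at 6 h was subtracted from the effect at 24 h. A positive value means that the triadimefon effect lay higher at 24 h than at 6 h. This can come from movement of the dosed rats, of the controls, or of both. The array values of the 4 groups are therefore given for many of the genes described. For the rest, the side that moved is not always shown. Values are the deposited scores, a log-type scale whose base is not stated. Errors after ± are standard errors of a limma fit with 5 arrays per group, and a gene is called where the Benjamini-Hochberg adjusted p, taken over all probe sets tested, was under 0.05. Values of single arrays are listed in the order of replicates 1 to 5.

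Triazoles were developed to block the fungal sterol demethylase, a cytochrome P450 whose animal counterpart works in cholesterol synthesis, and in rodent liver several of them activate the nuclear receptors CAR and PXR, which switch on drug-metabolising enzymes. The endoplasmic reticulum is the site where the liver folds its secreted plasma proteins. When unfolded proteins build up there, the factors ATF6 and XBP1 switch on chaperones, folding enzymes and translocation factors, in part through a promoter sequence named the ER stress element (ERSE). Fatty acid oxidation in mitochondria and peroxisomes is the liver's main route of burning lipid, and the nuclear receptor PPARalpha drives many of its genes. Cyclin D1 and the MCM helicase act at the entry into DNA replication, which adult hepatocytes rarely pass.

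The promoters of 4 genes are shown because they carry this element and their triadimefon effect was lower at 24 h than at 6 h. The sequences are the 250 bases before the gene start in RefSeq, build GRCr8, read 5′ to 3′ on the strand of the gene, and capitals mark a match to the ERSE, searched on both strands as CCAAT, then 9 bases of any kind, then CCACG, in windows that also held 50 bases after the start. Hspa5 lies at chr3:38452766-38453015 on the plus strand, Creld2 at chr7:121789134-121789383 on the plus strand, Hsp90b1 at chr7:23012294-23012543 on the minus strand and Dnajc3 at chr15:102432417-102432666 on the plus strand.
Hspa5: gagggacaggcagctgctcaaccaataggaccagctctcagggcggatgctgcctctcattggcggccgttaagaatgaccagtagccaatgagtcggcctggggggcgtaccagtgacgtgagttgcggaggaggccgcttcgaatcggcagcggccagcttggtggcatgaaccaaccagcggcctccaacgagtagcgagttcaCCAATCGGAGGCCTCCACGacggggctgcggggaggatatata
Creld2: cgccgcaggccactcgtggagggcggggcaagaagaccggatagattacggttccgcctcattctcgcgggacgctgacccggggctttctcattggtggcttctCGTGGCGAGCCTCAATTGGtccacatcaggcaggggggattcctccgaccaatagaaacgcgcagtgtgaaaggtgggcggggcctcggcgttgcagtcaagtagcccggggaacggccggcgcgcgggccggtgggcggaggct
Hsp90b1: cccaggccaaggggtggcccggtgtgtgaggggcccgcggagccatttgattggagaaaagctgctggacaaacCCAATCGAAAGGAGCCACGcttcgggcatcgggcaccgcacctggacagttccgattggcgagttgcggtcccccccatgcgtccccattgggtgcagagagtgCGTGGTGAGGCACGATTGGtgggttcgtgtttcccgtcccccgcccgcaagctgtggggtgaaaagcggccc
Dnajc3: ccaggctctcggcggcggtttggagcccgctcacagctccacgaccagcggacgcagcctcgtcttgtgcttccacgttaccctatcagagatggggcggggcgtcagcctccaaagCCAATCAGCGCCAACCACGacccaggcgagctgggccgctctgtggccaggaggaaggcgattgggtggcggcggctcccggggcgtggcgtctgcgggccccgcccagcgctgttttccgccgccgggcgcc
The match of Hspa5 ended 24 bases before the start, that of Creld2 126 bases and that of Dnajc3 114 bases, and Hsp90b1 held 2 matches. Across all RefSeq windows of this length, 22 of 33469 (0.0657%) held a match, and 8 of the 34 ER folding genes with a window did. Beyond the 4 shown, these were Calr, Canx, Ero1b and Xbp1. All 8 had a difference of differences below 0, and so had all 26 list members whose window held no match, with medians of -0.45 and -0.35. Of the 11727 measured genes with a window, 17 (0.145%) held a match. The 9 of these outside the list had a median of -0.034, with 7 values below 0 and 1 gene called lower. A match describes the letters of a window and does not show binding.

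The deposited scores ran from -0.98 to 5.69 over the series, array medians lay near 0, and the bright end differed between arrays. The mean 99th percentile of an array was 2.97 in the 6 h controls, 2.98 with triadimefon at 6 h, 3.10 in the 24 h controls and 2.93 with triadimefon at 24 h. This level moved with the groups: the median difference of differences was 0.014 among genes with a mean score under 0, -0.13 between 1 and 2 and -0.17 between 2 and 3. After quantile normalization, which gives all arrays the same distribution, these medians were 0.0075, -0.0045 and -0.0070. Values after that step are therefore given for the gene lists and for the described genes with a mean score of 2 or more. Control array 2 at 24 h had a 99th percentile of 3.52, the highest of the 45 arrays, and triadimefon array 5 at 24 h and triadimefon array 1 at 6 h stood apart from their groups for many named genes. Array file names end in 11 on all 24 h arrays, but at 6 h on 3 of 5 controls and 2 of 5 triadimefon arrays. The other 3 triadimefon arrays at 6 h ended in 12, as none of the controls did. The other 6 h controls ended in 21 and 31, each the only such array of the 45. Ending and dose thus overlapped in part at 6 h, and a fit with the ending as a covariate cannot fully separate them. In that fit the arrays ending in 21 and 31 each had their own term. They therefore did not inform the 6 h control mean. What the ending stands for is not given in the sources used here. Results with the ending as a covariate, and over the arrays ending in 11 alone, are given for the lists described at length and for a part of the single genes.

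The triadimefon effect was called different at 24 h from that at 6 h for 654 of 14218 genes (4.6%) by limma, lower for 562 (3.95%) and higher for 92 (0.647%). After quantile normalization 444 were lower (3.12%) and 269 higher (1.89%), so that the share of higher genes among the called ones rose from 14.1% to 37.7%. All 654 called genes kept their sign after that step, and 393 of the lower and 86 of the higher ones were called again. Most differences were small: the median size over called genes was 0.24 units, and 55 exceeded 0.5 units. At an unadjusted p under 0.05 there were 3247 genes. At 6 h triadimefon and control differed for 144 genes higher (1.01%) and 30 lower (0.211%), and at 24 h for 370 higher (2.6%) and 1182 lower (8.31%). After quantile normalization these were 356 higher (2.5%) and 183 lower (1.29%) at 6 h, and 838 higher (5.89%) and 901 lower (6.34%) at 24 h, so that the share of higher genes among those called at 24 h went from 23.8% to 48.2%.

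Genes reached a call in different ways. Of the 562 lower genes, 359 had an effect below 0 that was called at 24 h and no opposite one called at 6 h, 53 had an effect above 0 that was called at 6 h and none called at 24 h, and 12 were called above 0 at 6 h and below 0 at 24 h, while 138 were in none of these classes. Those 12 were Ackr3, Ankrd24, Anxa1, Bcs1l, Dnajb11, Fkbp11, Lrrc59, Plpp5, Scfd1, Slc39a10, Stt3a and Yipf5, named because they are the whole of that class. Dnajb11, Fkbp11, Lrrc59, Stt3a, Scfd1 and Yipf5 encode proteins of the endoplasmic reticulum or of the traffic out of it. The share of such genes among all 14218 was not counted, so this is a description of the names alone. Among the 92 higher genes, 63 gained an effect at 24 h, 8 lost a negative effect of 6 h, Cyp4a3 was the 1 gene called on both sides, and 20 were in none of these classes. After quantile normalization the classes held 236, 104 and 35 lower genes and 191, 28 and 11 higher ones, so their sizes depend on the scaling. The dosed rats were called lower at 24 h than at 6 h for 348 of the 562 lower genes, against 1054 of all 14218 genes. The controls were called higher at 24 h for 125 of the 562, against 362 of all 14218. With 23 in both counts, the change called was that of the controls alone for 102 genes. These classes describe calls that share arrays and were not tested against each other.

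**Figure D1:**
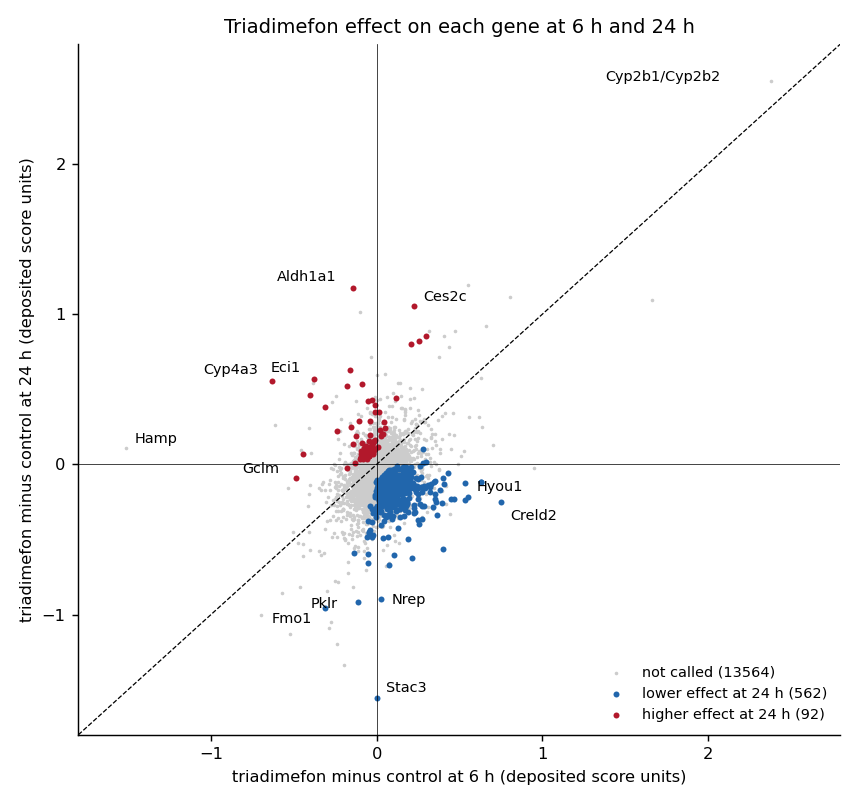
Triadimefon effect of each of 14218 genes at 6 h (horizontal) and at 24 h (vertical), in score units, with genes called in the difference of differences coloured (92 higher, 562 lower) and named genes labelled. Called lower genes lie below the diagonal of equal effect, among them Creld2 and Hyou1 with an effect above 0 at 6 h, and Stac3 lies far below 0 at 24 h with an effect near 0 at 6 h.

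**Figure D2:**
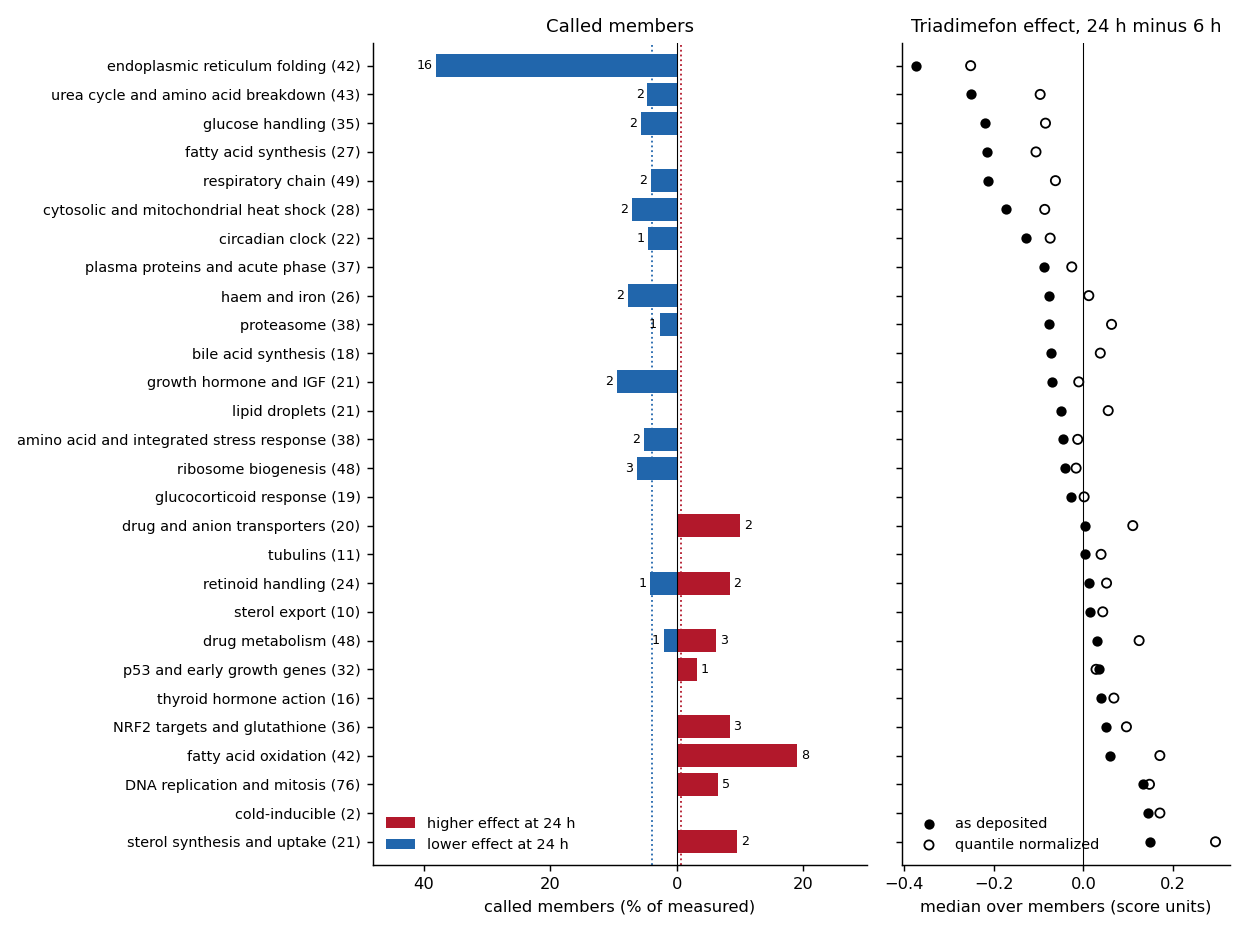
Left, share of the measured members of each gene list (number measured in parentheses) called higher (red) or lower (blue) at 24 h than at 6 h, with the count beside each bar and dotted lines at the shares over all genes (0.647% and 3.95%). Right, median difference of differences of each list in score units, as deposited (filled) and after quantile normalization (open). ER folding has the largest share of lower calls (16 of 42) and fatty acid oxidation the largest share of higher calls (8 of 42).

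Creld2, Hyou1, Manf and other genes of protein folding in the endoplasmic reticulum (ER) had a triadimefon effect above 0 at 6 h that was lower at 24 h. Of 42 members measured, 16 were lower at 24 h than at 6 h and 0 higher by limma (background 3.95% and 0.647%), with 32 lower and 0 higher at an unadjusted p under 0.05. The median difference of differences was -0.37, against -0.015 over all genes, and all 42 values lay below 0. After quantile normalization 18 members were lower and 0 higher, the median was -0.25 and 36 of 42 values lay below 0. Against control, 7 members were higher at 6 h (background 1.01%) and 13 were lower at 24 h (background 8.31%), and after quantile normalization 16 (background 2.5%) and 10 (background 6.34%).

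Creld2, a secreted ER protein that rises under folding stress, had the largest difference in this list. Creld2 (probe set 1377016_at) scored 1.03, 1.04, 0.97, 1.06 and 1.09 on the control arrays at 6 h, against 2.22, 1.71, 1.72, 1.66 and 1.65 on the triadimefon arrays. Creld2 at 24 h scored 1.19, 1.61, 1.47, 1.15 and 1.48 on the control arrays, against 0.99, 1.29, 1.17, 1.29 and 0.88 on the triadimefon arrays. All 5 triadimefon values at 6 h stood above all controls, as for 2.01% of all genes, with replicate 1 highest at 2.22. The groups overlapped at 24 h, where 3 triadimefon values fell within the control range. The effect was 0.75 ± 0.10 (adjusted p = 7.9e-06) at 6 h and -0.25 ± 0.10 (adjusted p = 0.098) at 24 h, a difference of -1.0 ± 0.14 (adjusted p = 5e-05). Part of it came from the controls, whose mean rose by 0.34 from 6 to 24 h, while that of the dosed rats fell by 0.66. After quantile normalization the difference was -0.88, and it was called without each of the 20 arrays in turn.

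Hyou1, a large chaperone of the ER that works with BiP, and Manf, a secreted protein that binds BiP, had the same form. Hyou1 (probe set 1371442_at) scored 1.0, 0.96, 1.18, 1.02 and 1.04 on the control arrays at 6 h, against 1.89, 1.52, 1.48, 1.54 and 1.53 on the triadimefon arrays. Hyou1 at 24 h scored 1.25, 1.53, 1.37, 1.09 and 1.48 on the control arrays, against 1.0, 1.30, 1.12, 1.28 and 0.94 on the triadimefon arrays. The 6 h groups did not overlap, and those of 24 h did. Its difference was -0.77 ± 0.11 (adjusted p = 0.00013), made of an effect of 0.55 at 6 h and -0.22 at 24 h, and a second probe set of the gene gave -0.51 ± 0.060. Manf (probe set 1372352_at) scored 2.11, 2.39, 2.37, 2.27 and 2.28 on the control arrays at 6 h, against 3.06, 2.77, 2.78, 2.60 and 2.89 on the triadimefon arrays. Manf at 24 h scored 2.34, 3.00, 2.58, 2.33 and 2.55 on the control arrays, against 2.13, 2.38, 2.36, 2.49 and 2.27 on the triadimefon arrays. Manf was higher on every triadimefon array at 6 h than on any control. Its control values at 24 h spread from 2.33 to 3.00, with the highest on array 2. The effect went from 0.54 to -0.23, a difference of -0.77 ± 0.14 (adjusted p = 0.0018).

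Dnajb11, a J-domain partner of BiP, was called on both sides of 0. Dnajb11 (probe set 1389308_at) scored 1.18, 1.24, 1.13, 1.22 and 1.26 on the control arrays at 6 h, against 1.75, 1.51, 1.48, 1.49 and 1.57 on the triadimefon arrays. Dnajb11 at 24 h scored 1.34, 1.67, 1.48, 1.20 and 1.53 on the control arrays, against 1.13, 1.29, 1.23, 1.36 and 1.07 on the triadimefon arrays. Every triadimefon array exceeded every control at 6 h, and at 24 h 3 of the 5 triadimefon values lay within the control range. The effect was 0.36 ± 0.066 (adjusted p = 0.0024) at 6 h and -0.23 ± 0.066 (adjusted p = 0.025) at 24 h, and the difference was -0.58 ± 0.094 (adjusted p = 0.00047). Pdia4, a disulfide isomerase, went from 0.36 (adjusted p = 0.061) to -0.33 (adjusted p = 0.027), a difference of -0.70 ± 0.14 (adjusted p = 0.0033).

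BiP itself, encoded by Hspa5, moved less evenly. Hspa5 (probe set 1370283_at) scored 2.77, 3.31, 3.34, 2.99 and 3.05 on the control arrays at 6 h, against 3.70, 3.41, 3.53, 3.23 and 3.55 on the triadimefon arrays. Hspa5 at 24 h scored 3.15, 3.88, 3.34, 3.08 and 3.41 on the control arrays, against 2.92, 3.18, 3.15, 3.18 and 3.14 on the triadimefon arrays. The groups overlapped at both times, and control array 2 at 24 h held the highest value of all 20. Its effect was 0.39 (adjusted p = 0.13) at 6 h and -0.26 (adjusted p = 0.22) at 24 h, neither called, while the difference of -0.65 ± 0.18 (adjusted p = 0.033) was. That call was lost when any 1 of control arrays 1 and 4 at 6 h, triadimefon array 1 at 6 h, control arrays 2 and 5 at 24 h or triadimefon array 1 at 24 h was left out (-0.64 to -0.52, adjusted p 0.05 to 0.1). After quantile normalization the difference was -0.52 (adjusted p = 2.3e-06). Hsp90b1, the ER form of Hsp90, had a difference of -0.68 ± 0.18 (adjusted p = 0.027), lost when any 1 of control array 1 at 6 h, triadimefon array 1 at 6 h, control array 2 at 24 h or triadimefon array 1 at 24 h was left out (-0.63 to -0.57, adjusted p 0.065 to 0.085).

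Other called members work in translocation and quality control. Sec61a1, the pore through which nascent chains enter the ER, had a difference of -0.43 ± 0.11 (adjusted p = 0.023), lost when any 1 of control array 1 at 6 h, triadimefon array 1 at 6 h, control array 2 at 24 h or triadimefon array 1 at 24 h was left out (-0.40 to -0.37, adjusted p 0.053 to 0.072). Dnajc3, a co-chaperone that also restrains the kinase PERK, gave -0.45 ± 0.13 (adjusted p = 0.042), with an effect called at 24 h alone (-0.34, adjusted p = 0.012). That call was lost when any 1 of control arrays 1, 3, 4 and 5 at 6 h, triadimefon arrays 1, 2 and 5 at 6 h, control arrays 2, 3 and 5 at 24 h or triadimefon arrays 1, 2, 3 and 5 at 24 h was left out (-0.47 to -0.32, adjusted p 0.052 to 0.11), and the difference was -0.27 (adjusted p = 0.002) after quantile normalization. The remaining called members were Derl2, Edem2, Sec61g, Sec63, Ssr1, Ssr2 and Ssr3, components of retrotranslocation and of the translocon. After quantile normalization Manf had -0.62 (adjusted p = 2.3e-06), Pdia4 -0.54 (adjusted p = 1.2e-05), Hsp90b1 -0.54 (adjusted p = 8e-06) and Sec61a1 -0.27 (adjusted p = 0.0055). Hsp90b1, Dnajb11, Sec61a1 and Dnajc3 were picked for description after their values were seen.

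Without control array 2 at 24 h, 9 members remained called lower and the median was -0.30. Without triadimefon array 1 at 6 h, 11 were called, with a median of -0.35, and without triadimefon array 5 at 24 h, 17, with -0.37. With the file ending as a covariate, 16 were called and the median was -0.44. Over the arrays ending in 11 alone, which left 3 controls and 2 triadimefon arrays at 6 h, the median was -0.36, all 42 values lay below 0, and Creld2 (-0.84, adjusted p = 0.026) and Hyou1 (-0.73, adjusted p = 0.018) were called.

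**Figure D3:**
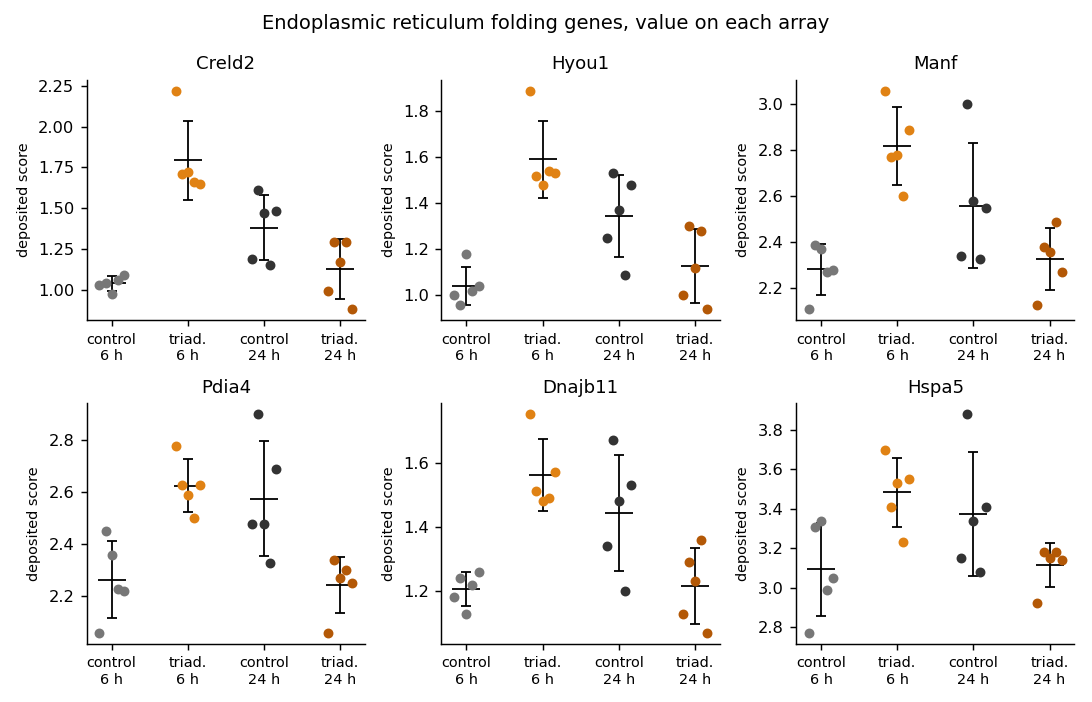
Deposited score on each array for ER folding genes in the control and triadimefon groups at 6 h and 24 h, with the mean and SD of the 5 arrays (lines and bars). The triadimefon values at 6 h stand above the controls for Creld2, Hyou1, Manf and Dnajb11, and at 24 h the groups overlap.

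Heat shock proteins and Hsp90 co-chaperones of the cytosol were above control at both times in part of the list. Of 28 members measured, 6 were higher than control at 6 h (background 1.01%), and 5 were higher and 1 lower at 24 h (background 2.6% and 8.31%). After quantile normalization 10 were higher at 6 h (background 2.5%), and 11 were higher and 2 lower at 24 h (background 5.89% and 6.34%). In the difference of differences 2 members (Fkbp4 and Hsbp1) were lower and 0 higher by limma, with 10 and 0 at an unadjusted p under 0.05. A count of 2 in 28 is near the 3.95% of all genes. The median was -0.17 as deposited and -0.086 after quantile normalization, when 3 were lower and 1 higher. Fitted with the file ending, 1 was lower and 0 higher by limma (9 and 0 at an unadjusted p under 0.05) with a median of -0.17, and over arrays ending in 11 0 were called (4 and 1 at that level) with a median of -0.11. Fkbp4, an Hsp90 co-chaperone of steroid receptors, had a difference of -0.46 ± 0.11 (adjusted p = 0.018), where the controls rose by 0.48 from 6 to 24 h and the dosed rats by 0.021. Adjusting for the file ending, its adjusted p was 0.054.

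Ppid, a cyclophilin that also binds Hsp90 but is not in this list, was higher on all 5 triadimefon arrays at 6 h. Ppid (probe set 1372827_at) scored 1.28, 1.57, 1.40, 1.40 and 1.40 on the control arrays at 6 h, against 1.87, 1.87, 1.75, 1.77 and 1.82 on the triadimefon arrays. Ppid at 24 h scored 1.43, 2.01, 1.63, 1.44 and 1.48 on the control arrays, against 1.5, 1.41, 1.45, 1.53 and 1.66 on the triadimefon arrays. The 24 h groups overlapped, with control array 2 highest. Its effect went from 0.40 (adjusted p = 4e-04) to -0.089 (adjusted p = 0.46), a difference of -0.49 ± 0.093 (adjusted p = 0.0021). Cdk2ap2, a regulator of cyclin-dependent kinase 2 that is also outside the list, went from 0.46 (adjusted p = 0.0095) to -0.23 (adjusted p = 0.15), a difference of -0.70 ± 0.14 (adjusted p = 0.0039). Hsph1, an exchange factor for Hsp70, kept an effect at both times, 0.62 (adjusted p = 0.00047) and 0.32 (adjusted p = 0.048), and its difference of -0.30 ± 0.14 was not called (adjusted p = 0.26, 95% interval -0.60 to -0.011). Of 24 heat shock genes with a promoter window, 15 held the core of the heat shock element (GAA and TTC with 2 bases between them, in either order), against 15.9% of all windows.

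Part of the fatty acid oxidation genes had a higher effect at 24 h than at 6 h. Of 42 measured members, 8 were higher at 24 h than at 6 h and 0 lower by limma (background 0.647% and 3.95%), with 14 and 2 at an unadjusted p under 0.05. The 8 were Cyp4a3, Eci1, Ech1, Acot4, Acot2, Ehhadh, Crat and Pex11a. The median over the list was 0.060, and 25 of 42 values lay above 0. After quantile normalization 15 were higher and the median was 0.17. Against control, 2 members were lower at 6 h (background 0.211%) and 8 higher at 24 h (background 2.6%), and after quantile normalization 11 (background 1.29%) and 16 (background 5.89%).

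Cyp4a3, an omega-hydroxylase of fatty acids and a known PPARalpha target, was below control at 6 h and above it at 24 h. Cyp4a3 (probe set 1370397_at) scored 3.27, 3.61, 3.61, 3.10 and 3.27 on the control arrays at 6 h, against 2.75, 3.01, 2.71, 2.58 and 2.66 on the triadimefon arrays. Cyp4a3 at 24 h scored 2.64, 2.81, 2.82, 2.58 and 2.70 on the control arrays, against 2.87, 3.53, 3.13, 3.04 and 3.74 on the triadimefon arrays. The groups did not overlap at either time, with the dosed rats lower at 6 h, as for 0.942% of all genes, and higher at 24 h, as for 1.86%. The effect was -0.63 ± 0.15 (adjusted p = 0.022) at 6 h and 0.55 ± 0.15 (adjusted p = 0.016) at 24 h, and the difference was 1.19 ± 0.21 (adjusted p = 0.0013). Both groups moved between the times, with the controls down by 0.67 units and the dosed rats up by 0.52. Without triadimefon array 5 at 24 h the difference was 1.07 (adjusted p = 0.0025).

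Eci1 and Ech1, isomerases that let unsaturated fatty acids enter beta-oxidation, also had means below control at 6 h and above it at 24 h. Their 6 h effects were not called. The effect of Eci1 was -0.38 (adjusted p = 0.18) at 6 h and 0.57 (adjusted p = 0.0045) at 24 h. That of Ech1 was -0.40 (adjusted p = 0.12) and 0.46 (adjusted p = 0.017). Eci1 (probe set 1367659_s_at) scored 2.30, 2.65, 2.53, 2.42 and 2.59 on the control arrays at 6 h, against 1.85, 2.27, 2.22, 2.11 and 2.16 on the triadimefon arrays. Eci1 at 24 h scored 1.77, 2.33, 2.23, 1.93 and 2.00 on the control arrays, against 2.30, 2.47, 2.64, 2.38 and 3.30 on the triadimefon arrays. At 6 h every triadimefon value lay below the lowest control, and at 24 h the groups overlapped by 1 value, with array 5 highest. The difference was 0.94 ± 0.18 (adjusted p = 0.0027), and 0.77 (adjusted p = 0.0035) without that array. The Eci1 controls fell by 0.45 between the times (adjusted p = 0.049), and the dosed rats rose by 0.50 (adjusted p = 0.013). A second, dim probe set of Eci1 gave 0.048 ± 0.049. Ech1 (probe set 1386885_at) scored 2.22, 2.46, 2.27, 2.31 and 2.39 on the control arrays at 6 h, against 1.75, 1.95, 1.99, 1.93 and 1.99 on the triadimefon arrays. Ech1 at 24 h scored 1.57, 1.92, 1.80, 1.71 and 1.67 on the control arrays, against 1.86, 2.01, 2.05, 2.00 and 3.07 on the triadimefon arrays. Triadimefon array 5 at 24 h, at 3.07, lay over 1 unit above the other 4 of its group, which all sat between 1.86 and 2.05. The control mean fell by 0.60 between the times (adjusted p = 0.0045), and the rise of 0.27 in the dosed rats was not called (adjusted p = 0.17). The difference was 0.87 ± 0.18 (adjusted p = 0.0044) with that array and 0.65 (adjusted p = 0.0014) without it.

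The thioesterases Acot2 and Acot4, which release free fatty acids from their coenzyme A esters in mitochondria and peroxisomes, had differences of 0.69 ± 0.15 (adjusted p = 0.0084) and 0.70 ± 0.18 (adjusted p = 0.022). Without triadimefon array 5 at 24 h they were 0.51 and 0.53. Hsdl2, a peroxisomal dehydrogenase-like protein outside the list, had 0.79 ± 0.15 (adjusted p = 0.0025), or 0.64 without that array. Crat, carnitine acetyltransferase, had 0.48 ± 0.12 (adjusted p = 0.019), and 0.42 without triadimefon array 1 at 6 h (adjusted p = 0.058). Pex11a, which drives the division of peroxisomes, had 0.46 ± 0.10 (adjusted p = 0.0067). Slc22a5, the carnitine importer, gave 0.41 ± 0.11 (adjusted p = 0.027), where the controls fell by 0.34 between the times. Its call was lost when any 1 of control arrays 1 and 3 at 6 h or triadimefon arrays 3 and 4 at 6 h was left out (0.37 to 0.40, adjusted p 0.05 to 0.054). Without triadimefon array 5 at 24 h the difference was 0.28 for Slc22a5, 0.37 for Crat and 0.35 for Pex11a. These were the lowest values of each gene over the 20 arrays left out in turn. After quantile normalization the difference was 1.30 (adjusted p = 1.4e-05) for Cyp4a3 and 1.09 (adjusted p = 2.8e-05) for Eci1. Crat and Pex11a were picked for description after their values were seen.

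Values of this list moved with triadimefon array 5 at 24 h. Without triadimefon array 5 at 24 h, 7 members were called and the list's median was -0.020, against 0.060 with it. Without control array 2 at 24 h it was 0.12 with 8 called, and without triadimefon array 1 at 6 h 0.065 with 6 called. With the file ending as a covariate 5 were called and the median was -0.010. Over arrays ending in 11 the median was -0.012 and 0 were called by limma, with 8 higher and 2 lower at an unadjusted p under 0.05, and Cyp4a3 had 1.15 (adjusted p = 0.062).

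**Figure D4:**
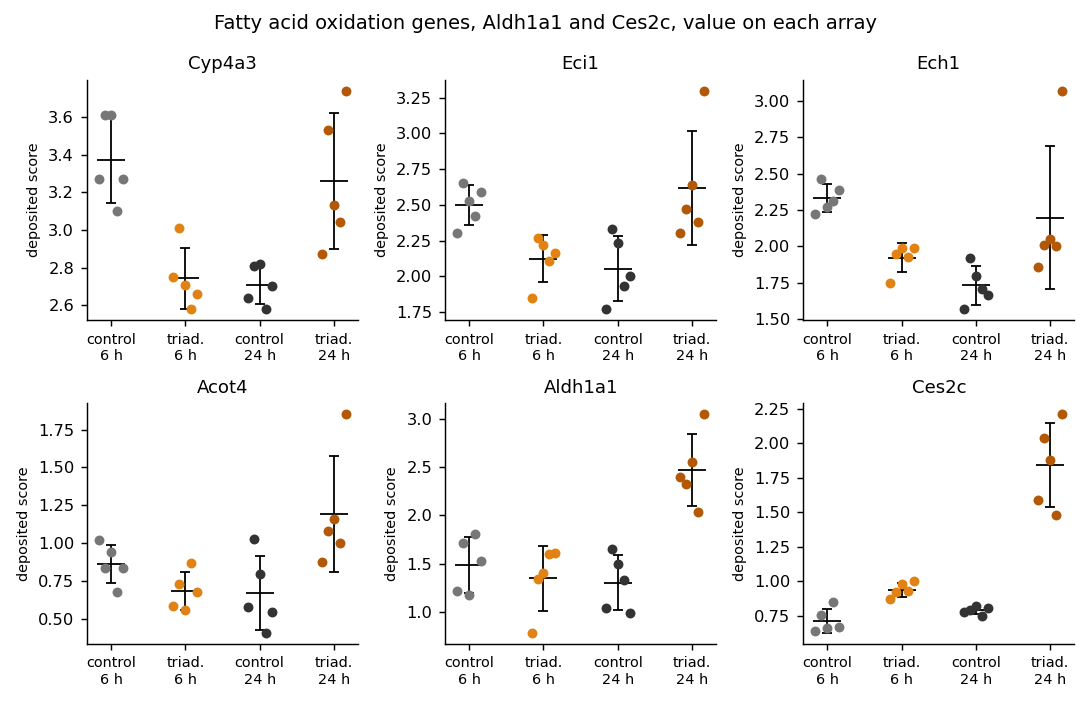
Deposited score on each array for Cyp4a3, Eci1, Ech1, Acot4, Aldh1a1 and Ces2c in the control and triadimefon groups at 6 h and 24 h, with mean and SD of 5 arrays. Cyp4a3 lies below the controls at 6 h and above them at 24 h, Ces2c separates from the controls most at 24 h, and triadimefon array 5 is the highest point at 24 h in all 6 panels.

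Drug-metabolising genes were mixed, and the strongest of them had already risen by 6 h. The probe set shared by Cyp2b1 and Cyp2b2, cytochromes P450 that CAR induces, was the clearest case. Cyp2b1/Cyp2b2 (probe set 1371076_at) scored 1.10, 0.81, 1.22, 1.86 and 1.37 on the control arrays at 6 h, against 3.72, 3.73, 3.87, 3.25 and 3.68 on the triadimefon arrays. Cyp2b1/Cyp2b2 at 24 h scored 1.28, 2.21, 1.77, 1.74 and 1.45 on the control arrays, against 3.95, 4.48, 4.31, 3.95 and 4.54 on the triadimefon arrays. All dosed rats exceeded all controls at both times. The effect was 2.38 ± 0.21 at 6 h and 2.56 ± 0.21 at 24 h, and the difference of 0.18 was not called, with a 95% interval of -0.42 to 0.78. In the drug metabolism list, 3 of 48 members were higher at 24 h (Aldh1a1, Ces2c and Ugt2a1) and 1 lower (Fmo1), with a median of 0.031 (background 0.647% and 3.95%). After quantile normalization 10 were higher and 2 lower (background 1.89% and 3.12%). Against control, 2 members were higher at 6 h (background 1.01%) and 10 at 24 h (background 2.6%). After quantile normalization these were 6 (background 2.5%) and 19 (background 5.89%). The difference of Cyp2b1/Cyp2b2 was then 0.26 (adjusted p = 0.61).

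Aldh1a1, an aldehyde dehydrogenase that makes retinoic acid, had the largest positive difference of all called genes. Aldh1a1 (probe set 1387022_at) scored 1.21, 1.71, 1.17, 1.81 and 1.53 on the control arrays at 6 h, against 0.78, 1.34, 1.40, 1.60 and 1.61 on the triadimefon arrays. Aldh1a1 at 24 h scored 1.04, 1.65, 1.5, 1.33 and 0.99 on the control arrays, against 2.40, 2.33, 2.55, 2.04 and 3.05 on the triadimefon arrays. The dosed rats overlapped the controls at 6 h and all stood above them at 24 h. Its effect went from -0.14 (adjusted p = 0.87) to 1.17 (adjusted p = 0.00022), a difference of 1.31 ± 0.29 (adjusted p = 0.0069). Ces2c, a liver carboxylesterase, showed the same timing with less spread. Ces2c (probe set 1368905_at) scored 0.64, 0.76, 0.66, 0.85 and 0.67 on the control arrays at 6 h, against 0.87, 0.92, 0.98, 0.93 and 1.0 on the triadimefon arrays. Ces2c at 24 h scored 0.78, 0.79, 0.82, 0.75 and 0.81 on the control arrays, against 1.59, 2.04, 1.88, 1.48 and 2.21 on the triadimefon arrays. Its dosed and control values did not overlap at 6 h, and the gap was wider at 24 h. The effect was 0.23 (adjusted p = 0.32) at 6 h and 1.05 (adjusted p = 2e-09) at 24 h, a difference of 0.82 ± 0.13 (adjusted p = 0.00051).

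Slco1a4, a sinusoidal importer of organic anions and a PXR target in rat, also gained between the times. Slco1a4 (probe set 1387093_at) scored 2.42, 2.51, 2.65, 2.64 and 2.66 on the control arrays at 6 h, against 2.94, 2.87, 2.96, 2.78 and 2.82 on the triadimefon arrays. Slco1a4 at 24 h scored 2.58, 2.65, 2.58, 2.54 and 2.34 on the control arrays, against 3.26, 3.48, 3.42, 3.30 and 3.50 on the triadimefon arrays. The groups were apart at both times. The effect went from 0.30 (adjusted p = 0.13) to 0.86 (adjusted p = 1.3e-07), a difference of 0.56 ± 0.13 (adjusted p = 0.015), and a second probe set gave 0.67 ± 0.13. Adjusting for the file ending, the adjusted p was 0.061. Slco1a4 and Slc22a5 were the 2 higher members of 20 in the transporter list, where 0 were lower by limma (background 0.647% and 3.95%), and 4 and 0 at an unadjusted p under 0.05. After quantile normalization 4 were higher, with Slco1a4 at 0.70 (adjusted p = 3e-04) and Aldh1a1 at 1.44 (adjusted p = 0.001). Fitted with the file ending, 0 of the 20 transporters were called by limma (4 higher and 3 lower at an unadjusted p under 0.05), and over arrays ending in 11 also 0 (3 and 0). Ugt2a1, a glucuronosyltransferase, had 0.32 ± 0.089 (adjusted p = 0.034). Its call was lost when any 1 of control array 2 at 6 h, triadimefon arrays 2 and 4 at 6 h or triadimefon arrays 1, 2 and 5 at 24 h was left out (0.28 to 0.33, adjusted p 0.053 to 0.063).

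Fmo1, a flavin monooxygenase, ran against the list. Fmo1 (probe set 1387053_at) scored 1.74, 1.80, 2.20, 1.99 and 1.94 on the control arrays at 6 h, against 1.82, 1.59, 1.54, 1.60 and 1.58 on the triadimefon arrays. Fmo1 at 24 h scored 1.85, 2.17, 1.89, 1.55 and 1.87 on the control arrays, against 0.57, 0.93, 0.99, 1.01 and 1.03 on the triadimefon arrays. At 24 h all dosed rats lay below all controls, as for 5.23% of all genes, with array 1 lowest at 0.57. The effect was -0.31 (adjusted p = 0.22) at 6 h and -0.96 (adjusted p = 4e-07) at 24 h, a difference of -0.65 ± 0.16 (adjusted p = 0.017). It stood at -0.57 without control array 2 at 24 h (adjusted p = 0.052).

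NRF2, a transcription factor of the oxidative stress response, drives glutathione synthesis and repair genes. In its list 3 of 36 members (Gstm3, Srxn1 and Gclm) were higher at 24 h and 0 lower by limma, with 7 and 4 at an unadjusted p under 0.05, and 9 and 0 were called after quantile normalization (background 0.647% and 3.95% as deposited, 1.89% and 3.12% after that step). Gclm, the modifier subunit of the enzyme that starts glutathione synthesis, was reduced at 6 h. Gclm (probe set 1370030_at) scored 1.89, 2.15, 2.27, 2.10 and 2.04 on the control arrays at 6 h, against 1.56, 1.58, 1.64, 1.75 and 1.5 on the triadimefon arrays. Gclm at 24 h scored 1.74, 1.96, 1.75, 1.67 and 1.84 on the control arrays, against 1.73, 1.66, 1.89, 1.72 and 1.5 on the triadimefon arrays. Every dosed rat lay below every control at 6 h, and the groups overlapped at 24 h. The effect went from -0.48 (adjusted p = 3e-05) to -0.09 (adjusted p = 0.46), a difference of 0.39 ± 0.095 (adjusted p = 0.016), while the controls fell by 0.30. Srxn1, sulfiredoxin, gained an effect at 24 h (0.29, adjusted p = 0.0014) and had a difference of 0.40 ± 0.084 (adjusted p = 0.0053). Of its other probe sets, 1 gave 0.32 ± 0.065 and a dim one -0.024 ± 0.034. Gstm3, a glutathione transferase, had 0.45 ± 0.13 (adjusted p = 0.043), lost when any 1 of control arrays 1, 4 and 5 at 6 h, triadimefon arrays 1, 2, 4 and 5 at 6 h, control arrays 2 and 5 at 24 h or triadimefon arrays 1, 2 and 5 at 24 h was left out (0.40 to 0.46, adjusted p 0.051 to 0.098). With the file ending as a covariate the adjusted p was 0.11 for Gclm and 0.065 for Srxn1. In that fit 0 of 36 members were called by limma (7 higher and 6 lower at an unadjusted p under 0.05) and the median was -0.0084, against 0.050 as deposited. Over arrays ending in 11 0 were called (5 and 4 at that level), with a median of 0.012.

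Without the 3 arrays that stood apart, each in turn, 3 members of the drug metabolism list were called higher. Without control array 2 at 24 h Fmo1 was no longer called. Adjusting for the file ending, 2 were higher and 1 lower, and over arrays ending in 11 0 were called by limma, 5 were higher and 2 lower at an unadjusted p under 0.05, with Aldh1a1 at 1.08 (adjusted p = 0.25), Ces2c at 0.80 (adjusted p = 0.076) and Slco1a4 at 0.63 (adjusted p = 0.18).

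Most sterol synthesis genes were higher than control at 24 h. Of 21 members of this list, 14 were higher at 24 h (background 2.6%) and 1 at 6 h (background 1.01%), while 2 (Msmo1 and Sqle) were higher in the difference of differences (background 0.647%) and 0 lower by limma, with 10 and 0 at an unadjusted p under 0.05. The median was 0.15 as deposited and 0.29 after quantile normalization, when 8 were called, 17 were higher than control at 24 h and Msmo1 had 0.75 (adjusted p = 0.0051). Cyp51, the sterol demethylase, was not called by its brightest probe set, while a second one gave 0.49 ± 0.099 (adjusted p = 0.004). Sqle is squalene epoxidase, which commits squalene to sterols. Sqle (probe set 1387017_at) scored 0.79, 1.12, 1.05, 1.14 and 0.89 on the control arrays at 6 h, against 1.33, 1.29, 1.04, 1.13 and 1.48 on the triadimefon arrays. Sqle at 24 h scored 0.70, 0.76, 0.78, 0.71 and 0.68 on the control arrays, against 1.70, 1.59, 1.64, 1.67 and 1.14 on the triadimefon arrays. All dosed rats lay above all controls at 24 h, with array 5 lowest of the 5. Its effect went from 0.26 (adjusted p = 0.31) to 0.82 (adjusted p = 2.5e-06), a difference of 0.57 ± 0.15 (adjusted p = 0.027). The call was lost when any 1 of control array 3 at 6 h, triadimefon array 3 at 6 h or triadimefon arrays 1 and 3 at 24 h was left out (0.51 to 0.55, adjusted p 0.051 to 0.065). Msmo1, a methylsterol oxidase that acts after the demethylase step, had 0.59 ± 0.16 (adjusted p = 0.033), lost when any 1 of control arrays 2, 3 and 4 at 6 h, triadimefon arrays 1, 3 and 4 at 6 h, control arrays 3 and 5 at 24 h or triadimefon arrays 1, 2 and 3 at 24 h was left out (0.50 to 0.61, adjusted p 0.05 to 0.068). Without triadimefon array 5 at 24 h both were larger, 0.67 and 0.72, and 4 members were called. Fitted with the file ending, the median was 0.086 and 0 were called by limma, 5 higher and 1 lower at an unadjusted p under 0.05. Over arrays ending in 11 the median was 0.072 and 0 were called, with 2 and 1 at that level.

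Ccnd1, cyclin D1, fell in the controls between the times. Ccnd1 (probe set 1371643_at) scored 1.28, 1.38, 1.44, 1.47 and 1.37 on the control arrays at 6 h, against 1.40, 0.96, 1.43, 1.39 and 1.30 on the triadimefon arrays. Ccnd1 at 24 h scored 0.78, 1.0, 0.72, 0.94 and 0.77 on the control arrays, against 1.43, 1.36, 1.09, 1.41 and 1.58 on the triadimefon arrays. At 6 h the groups overlapped, and at 24 h all dosed rats lay above all controls. The controls changed by -0.55 (adjusted p = 0.00013) between the times and the dosed rats by 0.078 (adjusted p = 0.62). The difference was 0.62 ± 0.12 (adjusted p = 0.0028), and 2 further probe sets gave 0.48 ± 0.089 and 0.74 ± 0.13. It was called without each of the 20 arrays in turn and with the file ending as a covariate (0.62, adjusted p = 0.02), and stood at 0.56 (adjusted p = 0.14) over arrays ending in 11.

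Part of the genes of DNA replication and mitosis were higher than control at 24 h. Of 76 measured, 24 were higher than control at 24 h (background 2.6%), and 5 (Mcm4, Cdt1, E2f1, Ncapd2 and Cdk2) were higher in the difference of differences (background 0.647%) with 0 lower by limma. At an unadjusted p under 0.05 these were 28 and 0. The median was 0.13, and 72 of 76 values lay above 0. After quantile normalization 4 were higher and 0 lower (background 1.89% and 3.12%), with a median of 0.15. Against control at 24 h 27 were then higher (background 5.89%). Cdt1, the loader of the MCM helicase, was low but separated. Cdt1 (probe set 1377967_at) scored -0.23, -0.19, -0.23, 0.02 and 0.03 on the control arrays at 6 h, against -0.21, -0.15, -0.13, -0.19 and -0.10 on the triadimefon arrays. Cdt1 at 24 h scored -0.24, -0.18, -0.21, -0.23 and -0.20 on the control arrays, against 0.30, 0.01, 0.09, 0.07 and -0.08 on the triadimefon arrays. At 24 h all dosed rats exceeded all controls, with array 1 highest. Its difference was 0.33 ± 0.066 (adjusted p = 0.0041). Mcm4, a subunit of that helicase, had 0.36 ± 0.10 (adjusted p = 0.043), with triadimefon values at 24 h from 0.10 to 0.72, and its call was lost when any 1 of control arrays 1, 2, 4 and 5 at 6 h, triadimefon arrays 1, 2, 4 and 5 at 6 h, control arrays 1, 2, 3 and 4 at 24 h or triadimefon arrays 1, 3 and 4 at 24 h was left out (0.27 to 0.38, adjusted p 0.052 to 0.11). Adjusting for the file ending, 3 members were called and the median was 0.13, and over arrays ending in 11 the median was 0.12 and 0 were called by limma, with 13 higher and 0 lower at an unadjusted p under 0.05. The motif TTTGAA, known as the core of the cell cycle genes homology region and searched on both strands, stood in 32 of the 66 promoter windows of this list, against 18.3% of all windows.

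The largest losses at 24 h were in single genes of varied roles. Stac3, known as a component of the muscle excitation machinery, had the lowest difference of all called genes. Stac3 (probe set 1395403_at) scored 2.01, 2.46, 2.75, 2.41 and 2.52 on the control arrays at 6 h, against 3.03, 2.27, 2.37, 2.37 and 2.11 on the triadimefon arrays. Stac3 at 24 h scored 2.63, 3.51, 2.63, 2.70 and 2.53 on the control arrays, against 1.54, 1.57, 1.12, 1.79 and 0.20 on the triadimefon arrays. The groups overlapped at 6 h and were apart at 24 h, with triadimefon array 5 at 0.20 far below its group. Its effect went from 0.00059 to -1.55 (adjusted p = 7.8e-05), a difference of -1.55 ± 0.35 (adjusted p = 0.0091), and -1.29 (adjusted p = 0.018) without that array. Nrep, a neuronal regeneration related protein, had the same array lowest. Nrep (probe set 1371412_a_at) scored 2.19, 2.63, 2.58, 2.11 and 2.32 on the control arrays at 6 h, against 2.65, 2.42, 2.30, 2.32 and 2.26 on the triadimefon arrays. Nrep at 24 h scored 2.37, 2.67, 2.56, 2.41 and 2.38 on the control arrays, against 1.81, 1.96, 1.77, 1.83 and 0.53 on the triadimefon arrays. All dosed rats lay below all controls at 24 h. The difference was -0.92 ± 0.23 (adjusted p = 0.022), -0.66 (adjusted p = 0.024) without that array, -0.85 without triadimefon array 1 at 6 h (adjusted p = 0.058) and -0.87 without control array 2 at 24 h (adjusted p = 0.055). After quantile normalization Stac3 had -1.38 (adjusted p = 0.0084) and Nrep -0.76 (adjusted p = 0.047). With the file ending as a covariate they had -1.70 (adjusted p = 0.024) and -1.11 (adjusted p = 0.024), and over arrays ending in 11 -1.48 (adjusted p = 0.22) and -0.98 (adjusted p = 0.22).

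Paqr9, a membrane receptor of the progestin and adiponectin receptor family, lay on opposite sides of the controls at 6 h and at 24 h. Paqr9 (probe set 1382569_at) scored 1.74, 1.94, 1.52, 1.70 and 1.73 on the control arrays at 6 h, against 2.28, 2.15, 2.17, 2.02 and 2.02 on the triadimefon arrays. Paqr9 at 24 h scored 1.97, 2.50, 2.20, 2.00 and 2.17 on the control arrays, against 1.57, 1.85, 1.70, 1.75 and 1.17 on the triadimefon arrays. The dosed rats all stood above the controls at 6 h and all below them at 24 h. Its effect was 0.40 (adjusted p = 0.094) and then -0.56 (adjusted p = 0.0021), a difference of -0.96 ± 0.17 (adjusted p = 0.0011). Fabp5, a fatty acid carrier, had -0.84 ± 0.21 (adjusted p = 0.017), with the controls up by 0.51 between the times, and -0.73 without control array 2 at 24 h (adjusted p = 0.053). Sez6, a protein best known from neurons, had a called change between the times in the controls. Sez6 (probe set 1391032_at) scored 0.85, 1.11, 0.54, 0.81 and 0.90 on the control arrays at 6 h, against 1.35, 0.93, 0.72, 1.17 and 0.41 on the triadimefon arrays. Sez6 at 24 h scored 1.75, 1.97, 1.46, 1.68 and 1.31 on the control arrays, against 0.97, 0.96, 0.97, 1.10 and 0.83 on the triadimefon arrays. All dosed rats lay below the controls at 24 h. The controls rose by 0.79 (adjusted p = 0.00048), against 0.05 (adjusted p = 0.86) in the dosed rats, and the difference was -0.74 ± 0.19 (adjusted p = 0.026). This was lost when any 1 of control array 3 at 6 h, triadimefon array 1 at 6 h or control array 2 at 24 h was left out (-0.66 to -0.63, adjusted p 0.072 to 0.077). Fitted with the file ending, the difference was -0.90 (adjusted p = 0.011) for Paqr9, -0.87 (adjusted p = 0.049) for Fabp5 and -0.66 (adjusted p = 0.097) for Sez6.

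Of 35 glucose handling genes, 12 were lower than control at 24 h (background 8.31%), and 2 (Pklr and Pygl) were lower in the difference of differences with 0 higher by limma, near the 3.95% of all genes. At an unadjusted p under 0.05 these were 13 and 0, and the median was -0.22 as deposited and -0.084 after quantile normalization, when 4 were lower and 14 were lower than control at 24 h. With the file ending as a covariate 4 were lower and the median was -0.34. Over arrays ending in 11 0 were called by limma (0 higher and 15 lower at an unadjusted p under 0.05), with a median of -0.31. Without control array 2 at 24 h 0 were called as well (0 and 11), with a median of -0.12. Pklr, the liver pyruvate kinase, had no overlap at 24 h. Pklr (probe set 1368651_at) scored 1.81, 2.50, 2.28, 1.96 and 2.17 on the control arrays at 6 h, against 2.17, 2.04, 1.65, 2.13 and 2.15 on the triadimefon arrays. Pklr at 24 h scored 2.41, 2.74, 2.15, 2.37 and 2.32 on the control arrays, against 1.47, 1.60, 1.5, 1.78 and 1.06 on the triadimefon arrays. Array 5 was again lowest among the dosed rats at 24 h. The effect was -0.11 (adjusted p = 0.85) at 6 h and -0.92 (adjusted p = 5.3e-05) at 24 h, the difference -0.81 ± 0.20 (adjusted p = 0.019), and -0.72 without control array 2 at 24 h (adjusted p = 0.057). A second probe set gave -0.60 ± 0.17, and after quantile normalization the difference was -0.65 (adjusted p = 0.029). Pygl, the liver glycogen phosphorylase, had -0.46 ± 0.11 (adjusted p = 0.02), which was -0.28 (adjusted p = 0.074) after quantile normalization, -0.43 without triadimefon array 1 at 6 h (adjusted p = 0.052) and -0.39 without control array 2 at 24 h (adjusted p = 0.062).

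Among growth hormone and IGF genes 2 of 21 were lower, Igfals and Cux2, and 0 higher by limma (background 3.95% and 0.647%), with 2 and 1 at an unadjusted p under 0.05. Igfals, which holds IGF in its circulating complex, was lower at 24 h. Igfals (probe set 1387816_at) scored 2.22, 2.60, 2.58, 2.23 and 2.35 on the control arrays at 6 h, against 2.67, 2.51, 2.57, 2.34 and 2.43 on the triadimefon arrays. Igfals at 24 h scored 2.22, 2.98, 2.53, 2.22 and 2.46 on the control arrays, against 1.84, 1.93, 1.93, 1.95 and 1.73 on the triadimefon arrays. The groups overlapped at 6 h and were apart at 24 h. The effect went from 0.11 (adjusted p = 0.79) to -0.60 (adjusted p = 0.00023), a difference of -0.71 ± 0.15 (adjusted p = 0.0049). After quantile normalization it was -0.55 (adjusted p = 0.00032), and 3 members of the list were lower. Fitted with the file ending, 2 members were lower and over arrays ending in 11 1 was. Cux2, a repressor that is higher in female than in male rat liver, was called against control at 6 h and not at 24 h. Cux2 (probe set 1382202_at) scored -0.08, 0.14, -0.13, -0.21 and -0.22 on the control arrays at 6 h, against 0.24, 0.47, 0.46, 0.24 and 0.25 on the triadimefon arrays. Cux2 at 24 h scored -0.14, -0.02, 0.05, -0.16 and -0.19 on the control arrays, against -0.18, -0.22, -0.22, -0.14 and 0.04 on the triadimefon arrays. At 6 h all dosed rats lay above all controls, and at 24 h both groups were near or below 0. The effect was 0.43 (adjusted p = 0.00066) and then -0.054 (adjusted p = 0.72), a difference of -0.49 ± 0.10 (adjusted p = 0.0058). It was called over arrays ending in 11 alone (-0.47, adjusted p = 0.026), and a second probe set gave -0.65 ± 0.10.

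A1bg and Trim24 were higher than control at 6 h, with a wide spread among the dosed rats. A1bg (probe set 1369509_a_at) scored -0.05, 0.08, -0.04, -0.07 and 0.10 on the control arrays at 6 h, against 0.65, 1.70, 0.35, 0.13 and 0.35 on the triadimefon arrays. A1bg at 24 h scored -0.13, 0.31, 0.47, -0.01 and -0.03 on the control arrays, against -0.10, -0.12, 0.06, 0.11 and 0.06 on the triadimefon arrays. A1bg encodes a secreted plasma glycoprotein. Triadimefon array 2 at 6 h, at 1.70, lay over 1 unit above the next. Its difference was -0.75 ± 0.21 (adjusted p = 0.039), lost when any 1 of control arrays 1, 3 and 4 at 6 h, triadimefon array 1 at 6 h, control arrays 2 and 3 at 24 h or triadimefon arrays 1, 2 and 3 at 24 h was left out (-0.77 to -0.66, adjusted p 0.051 to 0.092). Without triadimefon array 2 at 6 h the difference was -0.49 and still called, the smallest size over the 20 arrays left out in turn. With the file ending as a covariate it was -0.55 (adjusted p = 0.19). Trim24, a coregulator of nuclear receptors, went from 0.63 (adjusted p = 0.013) to -0.12 (adjusted p = 0.67), a difference of -0.75 ± 0.20 (adjusted p = 0.026). This call was lost when any 1 of control array 3 at 6 h, triadimefon array 2 at 6 h, control arrays 2 and 3 at 24 h or triadimefon arrays 1 and 2 at 24 h was left out (-0.74 to -0.62, adjusted p 0.051 to 0.079).

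Cry1, a repressor of the circadian clock, was the 1 of 22 clock genes called lower, with 0 higher by limma and 5 and 2 at an unadjusted p under 0.05, near the 3.95% of all genes. Fitted with the file ending, 0 were called by limma (3 lower and 1 higher at that level, Cry1 -0.46 (adjusted p = 0.052)), and over arrays ending in 11 0 (2 and 1). After quantile normalization 1 clock gene was lower and 0 higher (background 3.12% and 1.89%), and the list median of -0.13 became -0.074. Cry1 (probe set 1392640_at) scored 0.05, 0.03, 0.03, 0.00 and 0.03 on the control arrays at 6 h, against 0.23, 0.16, 0.03, 0.08 and 0.10 on the triadimefon arrays. Cry1 at 24 h scored 0.91, 1.13, 0.81, 0.67 and 0.80 on the control arrays, against 0.57, 0.23, 0.69, 0.40 and 0.61 on the triadimefon arrays. Controls rose by 0.83 between the times and dosed rats by 0.38, so that the 24 h groups differed by -0.36 (adjusted p = 0.0021) and the difference was -0.45 ± 0.11 (adjusted p = 0.015). In the controls 6 of the 22 clock genes were higher and 5 lower at 24 h than at 6 h (background 3.33% in either direction). The clock output gene Dbp scored 0.99 to 1.54 on the control arrays at 6 h and -0.08 to 0.08 at 24 h. Whether the 6 h and 24 h livers were taken at the same hour of day is not given in the sources used here. The part of the clock in differences where the controls moved was not tested. Hamp, hepcidin, the hormone that limits iron uptake, was not called. Hamp (probe set 1387396_at) scored 3.10, 3.71, 3.82, 3.31 and 3.14 on the control arrays at 6 h, against 1.19, 1.07, 2.53, 2.36 and 2.37 on the triadimefon arrays. Hamp at 24 h scored 2.91, 2.63, 1.28, 2.97 and 2.34 on the control arrays, against 3.34, 3.55, 1.81, 2.89 and 1.08 on the triadimefon arrays. The dosed rats all lay below the controls at 6 h, and the 24 h groups each spread over more than 1.5 units. The effect was -1.51 (adjusted p = 0.041) at 6 h and 0.11 (adjusted p = 0.9) at 24 h, and the difference was 1.62 ± 0.54 (adjusted p = 0.092), or 1.98 (adjusted p = 0.023) without triadimefon array 5 at 24 h. After quantile normalization it was 1.77 (adjusted p = 0.069), and with the file ending as a covariate 1.22 (adjusted p = 0.33).

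Other lists had few calls. Respiratory chain genes were lower than control at 24 h in 15 of 49 (background 8.31%), and all 49 had a difference of differences below 0. By limma 2 (Cox5a and Ndufs3) were called lower, near the 3.95% of all genes, and the median of -0.21 became -0.062 after quantile normalization. Urea cycle and amino acid breakdown genes gave 2 of 43 lower (Prodh and Sdsl), near the 3.95% of all genes, with a median of -0.25 that became -0.096. Ribosome biogenesis genes gave 3 of 48 lower (Bop1, Nop16 and Polr1c), near the 3.95% of all genes, with a median of -0.042 that became -0.016. Fatty acid synthesis genes had 0 of 27 called in either direction by limma, 7 lower and 1 higher at an unadjusted p under 0.05, and a median of -0.22 that became -0.11. Bile acid synthesis had 0 of 18 called, with 1 lower and 0 higher at an unadjusted p under 0.05. Its median of -0.072 became 0.038 after quantile normalization, when 0 were called.

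Myclobutanil, given at 225 mg/kg/day, allowed a test of whether the dosed rats of the other triazole changed alike between 6 and 24 h. The doses differ, so the test compares these treatments and not the compounds at equal doses. It set the change from 6 to 24 h on triadimefon arrays against that on myclobutanil arrays, with no control array entering. By limma 202 genes fell more, or rose less, with triadimefon (1.42%) and 20 the reverse (0.141%), and after quantile normalization 458 (3.22%) and 177 (1.24%). Of the 654 genes called above, 72 were also called here in the same direction, a count that rests on the same triadimefon arrays and is no separate support.

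ER folding and Hsp90 co-chaperone genes were among them. In the ER list 4 of 42 were lower and 0 higher by limma (background 1.42% and 0.141%), with 2 higher at an unadjusted p under 0.05. After quantile normalization 11 were lower and 1 higher (background 3.22% and 1.24%). The median effect of the list at 6 h was 0.16 with triadimefon and 0.039 with myclobutanil, and at 24 h -0.22 and -0.12. Creld2 had an effect at 6 h of 0.75 with triadimefon and 0.065 with myclobutanil, and the test gave -0.85 ± 0.14 (adjusted p = 0.00055). For Hyou1 these effects were 0.55 and 0.12, and the test gave -0.46 ± 0.11 (adjusted p = 0.024). Dnajb11 gave -0.45 ± 0.094 (adjusted p = 0.0088) and Cdk2ap2, which is not in the ER list, -0.66 ± 0.14 (adjusted p = 0.0098). Manf, with 6 h effects of 0.54 and 0.19, was not called (-0.41 ± 0.14, adjusted p = 0.21), nor was Hspa5 (-0.39 ± 0.18, adjusted p = 0.42). Both were called after quantile normalization, Manf at -0.33 (adjusted p = 0.0072) and Hspa5 at -0.34 (adjusted p = 0.00091).

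In the heat shock list 8 of 28 were lower and 0 higher by limma (background 1.42% and 0.141%), with 0 higher at an unadjusted p under 0.05. After quantile normalization 13 were lower (background 3.22%). Hsph1 reached 0.62 at 6 h and 0.32 at 24 h with triadimefon, and -0.041 and 0.43 with myclobutanil, so the test gave -0.77 ± 0.14 (adjusted p = 0.003). Fkbp4 gave -0.67 ± 0.11 (adjusted p = 0.0011) and Ppid, outside the list, -0.61 ± 0.093 (adjusted p = 0.00039). DNA replication genes gave 10 of 76 lower and 0 higher (background 1.42% and 0.141%), again with 0 higher at an unadjusted p under 0.05. Myclobutanil arrays at 24 h were higher than control in 70 of 76 (background 3.93%) and triadimefon arrays in 24 (background 2.6%). On the same myclobutanil arrays 10 of 10 Kupffer cell and macrophage markers were lower than control (background 6.86%), as were 2 of 6 endothelial and 2 of 4 neutrophil markers. The median of the Kupffer list was -0.39 with myclobutanil and -0.084 with triadimefon at 24 h, and its part in these counts was not tested. For Cdt1 the 24 h effects were 0.29 with triadimefon and 0.44 with myclobutanil, a difference that the test did not call (-0.16 ± 0.066, adjusted p = 0.36).

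The genes that gained most with triadimefon were not called in this test. The change of Aldh1a1 differed by 0.26 ± 0.29 (adjusted p = 0.84) between the treatments, with a 95% interval of -0.31 to 0.84. That of Ces2c differed by -0.10 ± 0.13 (adjusted p = 0.89), with an interval of -0.37 to 0.17. Cyp4a3 differed by 0.49 ± 0.21 (adjusted p = 0.36), interval 0.063 to 0.91, with 6 h effects of -0.63 and -0.56. Stac3 differed by -0.71 ± 0.35 (adjusted p = 0.47), interval -1.42 to -0.0034. Aldh1a3, a second retinaldehyde dehydrogenase, was the 1 higher gene called in both tests. It was lower with triadimefon at 6 h (-0.18, adjusted p = 0.0012), had a difference of differences of 0.15 ± 0.044 (adjusted p = 0.045), and gave 0.20 ± 0.044 (adjusted p = 0.011) in this test. The first of these calls was lost when any 1 of control arrays 2, 3 and 5 at 6 h, triadimefon arrays 1, 2, 3, 4 and 5 at 6 h, control arrays 4 and 5 at 24 h or triadimefon arrays 1, 2, 4 and 5 at 24 h was left out (0.12 to 0.16, adjusted p 0.056 to 0.083).

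**Figure D5:**
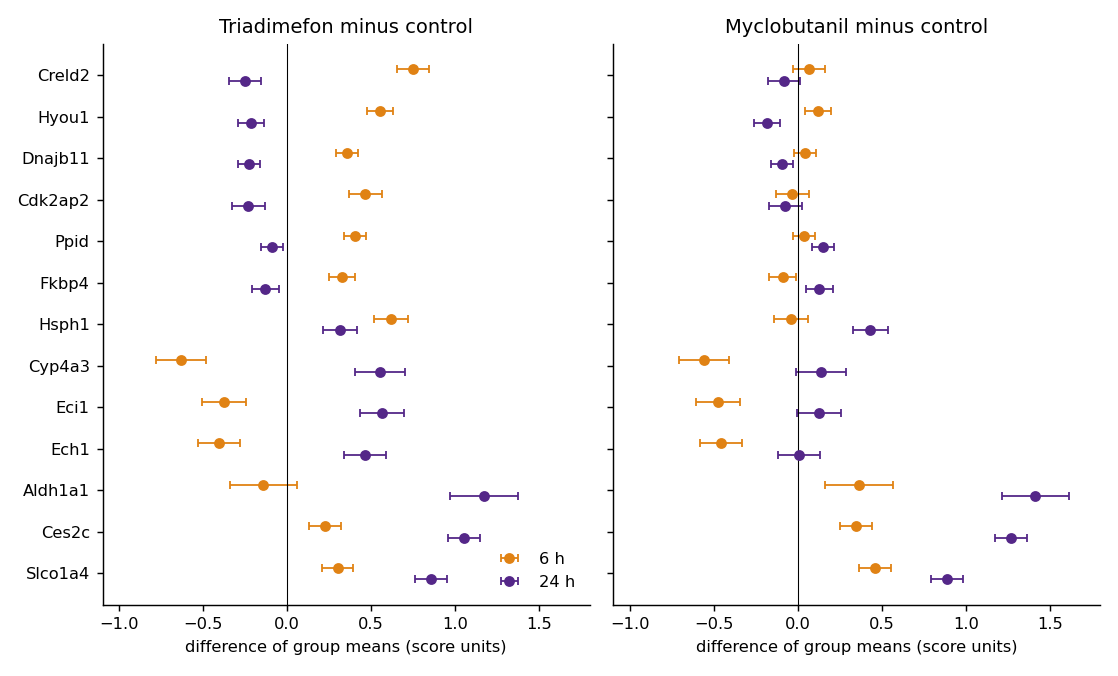
Effect against control of triadimefon (175 mg/kg/day) and myclobutanil (225 mg/kg/day) at 6 h and 24 h for named genes, in score units, as the difference of means of 5 arrays with its standard error. The ER genes shown (Creld2, Hyou1 and Dnajb11) and the Hsp90 co-chaperones stand above 0 at 6 h with triadimefon and near 0 with myclobutanil. Aldh1a1 and Ces2c stand above 0 at 24 h with both. The ER genes and co-chaperones shown were all called in the test between the treatments, which called 4 of 42 ER members.

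The 14 day arrays, which did not enter the difference of differences, were used as a further reading of the called genes. Triadimefon differed from control there for 781 genes higher (5.49%) and 389 lower (2.74%) by limma. Of the 92 genes whose effect was higher at 24 h than at 6 h, 10 (10.9%) were higher at 14 days and 5 lower. Of the 562 lower genes, 16 (2.85%) were lower at 14 days, near the 2.74% of all genes, and 33 (5.87%) were higher. Aldh1a1 was 1.75 ± 0.20 above control at 14 days, Ces2c 1.5 ± 0.10, Slco1a4 0.78 ± 0.095 and Gstm3 0.97 ± 0.092, all with an adjusted p under 0.05. Cyp2b1/Cyp2b2 stood at 2.52. Cyp4a3 (-0.34, adjusted p = 0.16), Eci1 (-0.17, adjusted p = 0.45) and Ech1 (0.16, adjusted p = 0.47) were not called. Hyou1 was lower (-0.28, adjusted p = 0.026), as were Fkbp4 (-0.31, adjusted p = 0.017), Paqr9 (-0.68, adjusted p = 0.00036), Stac3 (-0.85, adjusted p = 0.032) and Cry1 (-0.53, adjusted p = 2.1e-05). Creld2 (-0.24, adjusted p = 0.12) was not called.

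Marker lists checked the tissue. The mean score of 8 hepatocyte markers ran from 3.77 to 4.92 over the 20 arrays, that of 10 Kupffer cell and macrophage markers from 1.10 to 1.61, and that of 5 bile duct markers from 0.016 to 0.13. Neutrophil markers and those of T, NK and B cells had mean scores below 0, with 1 of 4 and 1 of 7 above 0. Of 54 markers of 8 cell types, 0 were called in the difference of differences by limma, with 3 lower and 1 higher at an unadjusted p under 0.05 and 1 hepatocyte marker called lower after quantile normalization. The medians of the Kupffer and hepatocyte lists, -0.15 and -0.13, became -0.027 and -0.059 after that step. In whole liver, fewer cells of a type and less RNA per cell cannot be told apart.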

How the data were processed

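Rat liver RNA was hybridised to Affymetrix Rat Genome 230 2.0 arrays. The authors deposited a processed score for each probe set on each array. How the scores were summarised and normalized, and the base of the logarithm, is not given in the sources used here. A total of 57 control probe sets was left out and 31042 were tested. The platform annotation gave 14218 genes, and for each the brightest probe set (by its mean over the 45 arrays) was used.

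The tests were fitted in limma 3.58.1 (R 4.3.3), with 9 group means over 45 arrays (36 residual degrees of freedom), moderated variances and p-values adjusted by Benjamini-Hochberg across all 31042 probe sets, and the script was tested on simulated data. The planned log2 values turned out to be scores of unstated base, so no fold is given. Arrays have no read depth, and their number limits the precision.

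Named were the 12 highest and 12 lowest differences among called genes, up to 4 called members per direction of each gene list, a panel, and genes also called against myclobutanil. From all but the first set, the part described was picked after values were seen. The members, the 37 lists and the tests were chosen with earlier results of these data known. Same-numbered samples do not deviate together (8 of 30 correlations above 0.1, median 0.023), so replicate numbers were not used as pairs. The alternatives were quantile normalization, equal medians, probe sets above the median level, fewer groups, a variance trend, array weights, a replicate block, the file ending, a stricter threshold and each array left out. Leaving out arrays of the myclobutanil and 14 day groups, and list medians without the 3 arrays that stood apart, were chosen after seeing the data.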

Additional observations from a re-analysis of the deposited data

Results flagged for a closer look

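A value that stands far from the other 4 of its group, by Dixon's test at the 95% level (critical ratio 0.71), occurred in 22 of the 204 groups of 5 arrays tested (10.8%), which were the 4 groups for each of 50 genes and for the arrays' 99th percentile. Chance gives about 1 in 20. Triadimefon array 5 at 24 h accounted for 7, triadimefon array 1 at 6 h for 6, control array 2 at 24 h for 3 and triadimefon array 1 at 24 h for 2.

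On triadimefon array 5 at 24 h the high values were Ech1 at 3.07, Acot4 at 1.85, Pex11a at 1.24 and Slc22a5 at 1.13, and the low ones Sqle at 1.14, Msmo1 at 2.56 and Nrep at 0.53. On triadimefon array 1 at 6 h Creld2 stood high at 2.22, Hyou1 at 1.89, Fmo1 at 1.82, Stac3 at 3.03 and Pygl at 2.44, and Ech1 low at 1.75. Control array 2 at 24 h was high for Cdk2ap2 at 2.49, Msmo1 at 2.60 and Stac3 at 3.51. Triadimefon array 1 at 24 h was low for Hspa5 at 2.92 and Fmo1 at 0.57. Single cases were Gstm3 at 0.11 on control array 3 and Trim24 at 0.34 on control array 2 at 6 h, Ccnd1 at 0.96 on triadimefon array 2 and Pklr at 1.65 on triadimefon array 3 at 6 h. Whether these arrays differ in RNA quality or handling was not tested.

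The effect of triadimefon differed between the times, by a test of the difference itself, for 562 genes lower and 92 higher at 24 h. The change from 6 to 24 h differed between triadimefon and myclobutanil arrays for 8 of the described genes, in score units: Creld2 by -0.85, Hsph1 by -0.77, Fkbp4 by -0.67, Cdk2ap2 by -0.66, Ppid by -0.61, Hyou1 by -0.46, Dnajb11 by -0.45 and Aldh1a3 by 0.20.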

How the results depend on the processing

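No value of a described gene reversed its sign under any alternative. After quantile normalization 49 of 50 stayed on their side of the threshold, with the file ending as a covariate 34, and over arrays of ending 11 alone 6. With only the groups compared, which left the spread to be estimated from fewer arrays, 27 of 50 did and 23 were no longer called. The stricter threshold of an adjusted p under 0.01 left 25. Below, T is the difference of differences, and counts are genes or list members. Quantile normalization gave T 269 higher, fatty acid oxidation 15, sterol synthesis 8, 6 h 356 higher and 183 lower, 24 h 838 higher, the compound test 177 higher and 458 lower, and 14 days 766 lower. With probe sets above the median level DNA replication had 3, 6 h 48 lower and the compound test 31 higher. With only the groups compared T had 28 higher and 184 lower, fatty acid oxidation 3, sterol synthesis 0, DNA replication 0, 24 h 70 higher and 233 lower, the compound test 335 lower and 14 days 236 lower. Array weights gave sterol synthesis 5, DNA replication 11, 6 h 247 higher and 55 lower, and the compound test 42 and 383. The file ending as a covariate gave T 36 higher, fatty acid oxidation 5, sterol synthesis 0, DNA replication 3, and 6 h 21 and 5. Arrays of ending 11 alone gave T 1 and 15, ER folding 2, fatty acid oxidation, sterol synthesis and DNA replication 0, 6 h 5 and 2, and the compound test 1 and 1. An adjusted p under 0.01 gave T 17 and 161, ER folding 8, fatty acid oxidation 5, sterol synthesis 0, DNA replication 2, 6 h 60 and 11, 24 h 128 and 476, the compound test 4 and 79, and 14 days 299 and 64. The causes were not tested, beyond fewer arrays or a stricter threshold where the setting has them.

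With the replicate block, which the data do not support as a pairing, T had 88 higher and 631 lower, DNA replication 3, ER folding 19 and fatty acid oxidation 8. Leaving out 1 array at a time gave T 48 to 117 higher and 250 to 873 lower, ER folding 9 to 23, fatty acid oxidation 6 to 10, sterol synthesis 0 to 4, DNA replication 2 to 12, 6 h 62 to 215 higher and 15 to 35 lower, 24 h 210 to 380 higher and 454 to 1672 lower, the compound test 10 to 29 higher and 131 to 227 lower, and 14 days 476 to 709 higher and 126 to 475 lower.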
